A study of Rattus norvegicus with 23 samples.

Results

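The genes described here make GABA or mark the interneurons of the striatum. They are 6 of the 32552 genes in the count tables. They were taken by Ensembl identifier, with no cutoff on their measured values, but with earlier results of these data known. All 6 passed the filter on low counts that left 16275 genes. Gad1 (ENSRNOG00000000007) and Gad2 (ENSRNOG00000018200) encode the enzymes that make GABA from glutamate, and Sst (ENSRNOG00000001837), Npy (ENSRNOG00000009768), Pvalb (ENSRNOG00000006471) and Nos1 (ENSRNOG00000001130) encode somatostatin, neuropeptide Y, parvalbumin and neuronal nitric oxide synthase. RNA from the dorsal striatum of 23 adult male Long Evans rats, 1 library per rat, was sequenced 24 h after a last drug seeking test. The labels name no transgene or allele, and the tissue was dissected whole, so each value is a mean over all its cells.

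The 6 control rats, labelled Ct and written CT in the study, worked for intravenous saline and received no footshocks. Their days of training, abstinence and renewed self-administration were the same as those of the other rats. The other 17 rats self-administered methamphetamine (METH) at 0.1 mg/kg per infusion over 22 training days and were then punished with footshocks rising from 0.18 to 0.36 mA on 8 days. After 15 days of abstinence came 12 days of renewed self-administration, 3 days of punishment at 0.30 mA and another 15 days of abstinence. The 6 SR rats, called always shock-resistant in the study, kept taking METH in both punishment phases. The 5 RSR rats, called delayed shock-resistant, cut their intake in the first phase and not in the second, and the 6 SS rats, called always sensitive, cut it in both. Every METH rat also met footshocks and no Ct rat did, so METH and footshock cannot be told apart in a comparison with Ct, and the METH groups were defined by the rats' own behavior and not assigned.

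Most striatal neurons use GABA as their transmitter. The great majority are projection neurons, which contain GAD, and a small remainder are interneurons. One class of interneuron makes somatostatin, neuropeptide Y and neuronal nitric oxide synthase together, and another, fast-spiking class makes parvalbumin. Both GAD transcripts can thus come from projection neurons as well as interneurons in whole tissue, while the other genes mark rarer cells. Whether fewer cells of a type or less RNA per cell lies behind a lower value cannot be told apart in bulk RNA.

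None of these genes differed between any of the 4 groups by the test across all genes, and no gene separated any group from another without overlap of its rats. In 36 tests (6 genes, 6 comparisons) with edgeR's quasi-likelihood test the smallest unadjusted p was 0.0561 and the smallest Benjamini-Hochberg adjusted p was 0.265. The smallest unadjusted p belonged to Pvalb in SR vs SS, and the smallest adjusted p to Npy in SS vs Ct, which rests on few counts. Pvalb was lower in SS rats, with 26.4 ± 8.65 CPM (SD, n = 6) against 35.9 ± 4.34 in SR and 35.4 ± 6.42 in Ct, without passing the test. The RSR rats lay between, with 31.5 ± 12.0 CPM (n = 5). Leaving out either of the lowest SS rats made the differences from SR and from Ct smaller. The clearest pattern lay between rats of the same group. Rats high in Gad1 were also high in Gad2 and in Nos1. No correlation of Pvalb or Sst with another of these genes had an adjusted permutation p under 0.05 over the 23 rats.

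Gad1 lies on chromosome 3 at 56861396 to 56902157 (+ strand, Rnor6.0, the build of the files) and Gad2 on chromosome 17 at 89171250 to 89238040 (+). Sst lies on chromosome 11 at 80358211 to 80359444 (+), Npy on chromosome 4 at 79557854 to 79565097 (+), Pvalb on chromosome 7 at 119429019 to 119441487 (-) and Nos1 on chromosome 12 at 44213943 to 44520341 (-). The counts cover all annotated exons of a gene, which add up to 3866 bases for Gad1, 5561 for Gad2, 613 for Sst, 607 for Npy, 537 for Pvalb and 6828 for Nos1. The exons of these genes share no position with exons of any other gene in the annotation of the files. The span of Nos1 holds 1 other gene, with no exon in common.

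Promoter sequences are shown for the 3 genes that rose and fell together from rat to rat, Gad1, Gad2 and Nos1, and for Sst. Sst is expressed in the same interneurons as Nos1, but none of its correlations with those genes passed adjustment over all rats. All 6 genes were matched by symbol to RefSeq, where they lie on the same chromosomes and strands as in the files. The sequences are RefSeq's (build GRCr8), written 5′ to 3′ on the strand of the gene, from 120 bases before to 25 bases after the annotated start. They lie at chr3:75777332-75777476 (+) for Gad1, chr17:89671598-89671742 (+) for Gad2, chr12:44371813-44371957 (-) for Nos1 and chr11:90461426-90461570 (+) for Sst. Capitals mark the cAMP response element TGACGTCA, the letters bound by CREB-family factors.
Gad1: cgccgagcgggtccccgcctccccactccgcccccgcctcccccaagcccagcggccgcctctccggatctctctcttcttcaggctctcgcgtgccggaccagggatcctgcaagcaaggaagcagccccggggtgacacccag
Gad2: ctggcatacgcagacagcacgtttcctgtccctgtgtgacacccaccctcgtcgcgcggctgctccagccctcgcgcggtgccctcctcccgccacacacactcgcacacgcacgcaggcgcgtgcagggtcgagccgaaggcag
Nos1: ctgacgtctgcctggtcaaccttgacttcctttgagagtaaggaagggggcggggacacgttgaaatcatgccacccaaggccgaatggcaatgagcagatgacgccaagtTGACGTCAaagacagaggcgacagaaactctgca
Sst: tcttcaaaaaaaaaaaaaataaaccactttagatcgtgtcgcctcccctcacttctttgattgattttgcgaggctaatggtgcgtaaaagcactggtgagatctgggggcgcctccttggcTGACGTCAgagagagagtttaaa
Nos1 held the element 9 to 2 bases before its annotated RefSeq start, and Sst at bases 3 to 10 after its annotated start. Where transcription begins in these rats was not measured, so the annotated start may not be the true one. In the 300-base windows of the table, from 250 bases before to 50 bases after a start, TGACGTCA was found in 612 of 33469 promoters (1.83%), and it reads the same on both strands. The windows of Gad1, Gad2, Npy and Pvalb did not hold these 8 letters. Another motif, the GC box GGGCGG searched on both strands, stood in the windows of Gad1, Npy, Pvalb and Nos1 and in 33.1% of all windows. A match is a description of letters and no evidence of a factor at work in these rats.

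Library totals ran from 18967015 to 28137676 counts (median 23069812). The share of counts from mitochondrial genes was 11.6% to 15.9% in 22 libraries and 19.6% in the SS rat Grp7-R1. Each rat has a code that starts with Grp7 or Grp8, which the labels do not explain. The codes give 4 Grp7 and 2 Grp8 rats in Ct, 3 and 3 in SR, 2 and 3 in RSR, and 4 and 2 in SS. None of the 6 genes differed between Grp8 and Grp7 rats in the edgeR fit with group as a term, where the smallest unadjusted p was 0.163 and 2.25% of all genes were under 0.05. The 12 relations of the 6 genes with the mitochondrial share and with the total count, after removing group means, gave adjusted permutation p-values over the 23 rats of at least 0.804 for r and at least 0.614 for rho. For Gad1 and the mitochondrial share, r was 0.163 (permutation p = 0.477) and rho was 0.44 (permutation p = 0.0512), and r was 0.545 (permutation p = 0.0271) without the 2 rats farthest from the median mitochondrial share. Without them r was also 0.477 (permutation p = 0.0861) for Gad2 and 0.423 (permutation p = 0.0337) for Nos1, and these values were not adjusted. The rats are separate animals, and within each group their counts differed by more than sampling noise (chi-square per gene 7.30 to 99.4 over 55 pairs).

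CPM values, which are counts divided by a library size scaled with trimmed means (TMM), were divided by the exon length of a gene in kilobases to set the genes side by side. Sst had the highest level per length, 182 ± 30.1 CPM per kb (SD, n = 23), and lay above 97.9% of the genes tested. Gad1 followed with 102 ± 17 CPM per kb and Gad2 with 85.9 ± 13.0. Pvalb reached 60.2 ± 15.9 CPM per kb, Nos1 5.48 ± 0.787 and Npy 0.807 ± 0.374. This order held in every rat for each pair of neighbours except Gad2 and Pvalb, where Gad2 was the higher in 20 of 23 rats. Nos1 and Sst had levels per length far apart although they mark the same interneuron class.

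**Figure D1:**
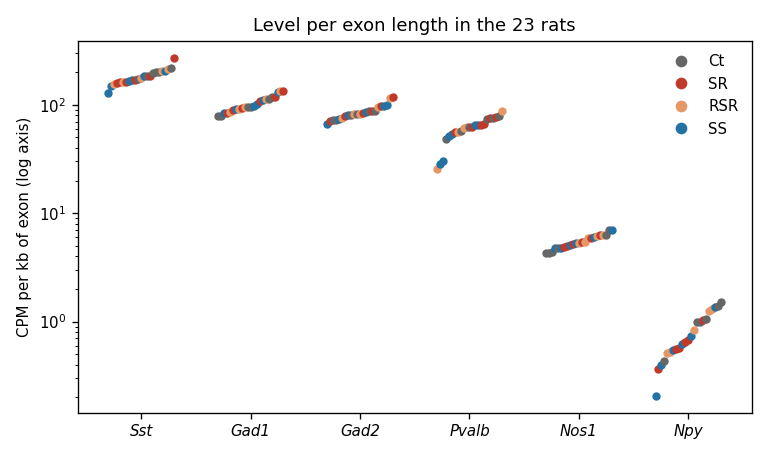
Level of each gene in CPM per kb of exon (log axis), 1 point per rat in the color of its group, with the 23 rats of a gene spread sideways in rising order. Sst lay highest at 127 to 273 CPM per kb, and the Npy values lay lowest, at 0.208 to 1.5.

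The order of the GAD pair depended on the scale. Gad2 had more counts than Gad1 in 23 of 23 rats, with a count ratio of 1.22 ± 0.0846 (SD), but per length Gad2 stood at 0.847 ± 0.0588 of Gad1 (range 0.741 to 0.957). The ratio per length was 0.844 ± 0.0721 in Ct, 0.854 ± 0.0562 in SR, 0.872 ± 0.0495 in RSR (n = 5) and 0.821 ± 0.0583 in SS (n = 6 in the others). The ranges of the 4 groups overlapped, and a difference in this ratio was not tested.

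To ask whether METH intake under punishment went with a different GABA synthesis transcript level, Gad1 and Gad2 were compared over the groups. Gad1, which makes most of the GABA in the cell body, was lowest at 304, median 371 and highest at 453 CPM in Ct. In SR the same values were 324, 391 and 520 CPM, and in SS 324, 384 and 506. The 5 RSR rats had 332, 350, 370, 437 and 513 CPM. The groups covered nearly the same range, and each held low as well as high rats. Mean Gad1 was 374 ± 62.8 CPM in Ct, 405 ± 75.3 in SR, 401 ± 74.4 in RSR and 397 ± 64.8 in SS. Against Ct the log2 fold change was 0.12 (SE 0.13) in SR, 0.10 (SE 0.14) in RSR and 0.08 (SE 0.13) in SS, with edgeR adjusted p-values of 0.951, 0.982 and 0.738. Over the 6 comparisons the 95% intervals for Gad1 reached from 0.825-fold to 1.32-fold, so larger changes than these lie outside every interval.

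Gad2, whose enzyme sits largely at nerve endings, ran from 403 to 491 CPM in Ct (median 455), from 394 to 652 in SR (median 476) and from 373 to 556 in SS (median 461). The RSR rats had 421, 457, 460, 526.4 and 639 CPM. The METH groups spread wider than Ct, and the lowest as well as the highest rats belonged to them. The SD was 37.5 CPM in Ct and 91.0, 86.1 and 73.3 in SR, RSR and SS, a difference in spread that was not tested. Mean Gad2 was 449 CPM in Ct, 497 in SR, 501 in RSR and 467 in SS, and the largest log2 fold change of the 6 comparisons was 0.16 (SE 0.12) in RSR vs Ct, with an edgeR adjusted p of 0.982. All 95% intervals lay within 0.831-fold and 1.33-fold.

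Sst encodes somatostatin, a peptide that inhibits neighbouring neurons. Its level ran from 105 to 134 CPM in Ct (median 122), from 97.6 to 167 in SR (median 102) and from 78.0 to 127 in SS (median 103), and was 94.8, 99.3, 107, 126 and 131 in the RSR rats. In SS 4 of 6 rats lay below every Ct rat, and so did 4 of 6 SR rats, while none of the SS or RSR rats was above the highest Ct rat. The SR rat Grp7-L4, at 167 CPM, stood apart from the other 5 SR rats, which lay between 97.6 and 113. Mean Sst was 120 ± 9.90 CPM in Ct, 113 ± 26.9 in SR, 112 ± 16.1 in RSR and 102 ± 16.7 in SS. In SS vs Ct the log2 fold change was -0.23 (SE 0.12, 95% interval -0.48 to 0.03), with an edgeR unadjusted p of 0.0828 and an adjusted p of 0.292, and the exact two-sided permutation test on log2 CPM gave p = 0.0498. In the SS rat Grp7-R1, which had the lowest Sst of all at 78.0 CPM, the mitochondrial share was the highest of all, and without that rat the log2 fold change in SS vs Ct was -0.17 (unadjusted p = 0.194). Without SS Grp7-L10, the SS rat with the most Sst, it was -0.32 (unadjusted p = 0.0216, adjusted p = 0.127). For SR vs Ct it was -0.08 (SE 0.12, adjusted p = 0.961), and without rat Grp7-L4 it was -0.23 (unadjusted p = 0.0338, adjusted p = 0.831). In Grp7 rats the SR vs Ct value was 0.10 (edgeR unadjusted p = 0.590) and in Grp8 rats, with 3 SR and 2 Ct rats, it was -0.32 (edgeR unadjusted p = 0.0463, adjusted p = 0.999). A rise or fall of Sst was therefore not shown in any METH group.

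Npy encodes a peptide of the same interneurons, and its counts say little here. They were 3 to 21 per library (0.126 to 0.913 CPM), and the gene lay above only 12.5% of the genes tested per length. A second gene model without a symbol in the files, ENSRNOG00000046449, begins 8900 bases beyond Npy on the same strand (chr4:79573998-79581208) and has the same layout. Its inner exons are 188 and 81 bases long, as in Npy, and its introns 792, 4091 and 1753 bases against 792, 4092 and 1753. No other gene model in the files had 4 exons with these inner lengths, so the annotation holds 2. The RefSeq table of the later build lists 1 Npy, between 2 long noncoding RNAs. Only uniquely mapped reads were counted, so any reads that fit both models equally well would be missing from each, and the Npy counts are uncertain as a level of the gene. The layouts alone were compared, and the sequences of the 2 models were not aligned here. The second model had 0 to 8 counts per library, 54 in all against 263 for Npy.

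**Figure D2:**
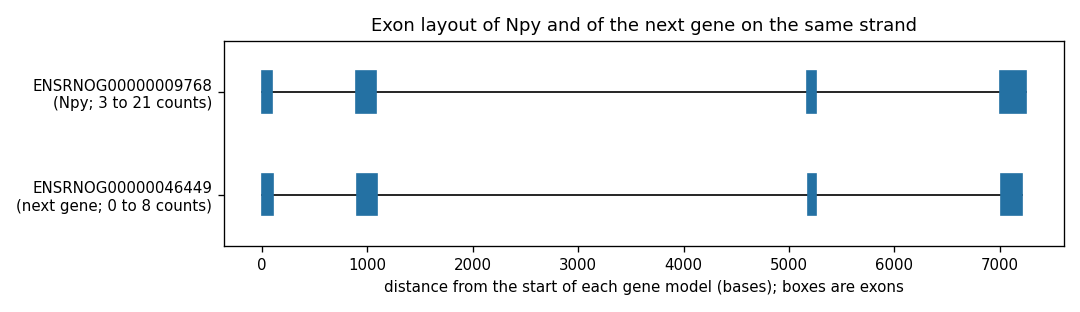
Exons (boxes) and introns (lines) of Npy and of the next gene model on the same strand, drawn to scale in bases from the start of each. The 4 exons of both models fall at nearly the same distances, and the counts over the 23 libraries are given beside each name.

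Ct rats had 6, 13, 14, 14, 16 and 21 Npy counts, and SR rats 6, 7, 8, 10, 10 and 17. The RSR rats had 8, 8, 14, 19 and 20, and the SS rats 3, 5, 7, 9, 9 and 19. The groups overlapped, and the test for any difference among the 4 groups gave an edgeR unadjusted p of 0.167. No fold change is given for Npy, since the counts are few and reads may be shared with the second model.

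Pvalb encodes parvalbumin, a calcium buffer of the fast-spiking interneurons. Its level ran from 25.9 to 42.1 CPM in Ct (median 36.3), from 29.9 to 41.6 in SR (median 35.3) and from 15.4 to 35.0 in SS (median 28.4). The RSR rats had 13.8, 30.0, 32.9, 33.2 and 47.4 CPM, which include both the lowest and the highest value of the 23. The rats with the least Pvalb, RSR Grp8-L9 at 13.8, SS Grp7-R2 at 15.4 and SS Grp8-L5 at 16.4 CPM, stood well below the next rat at 25.9, and they were singled out after their values were seen. Their Gad1 levels were 332, 376 and 430 CPM and their Nos1 levels 36.5, 36.4 and 47.3, which are not the lowest of their groups except for Gad1 and Nos1 in the RSR rat. Each of these 3 libraries rests on 325 or more Pvalb counts. The low values belonged to 1 RSR rat and 2 SS rats, and no Ct or SR rat had less than 25.9 CPM.

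In SR vs SS the log2 fold change of Pvalb was 0.45 (SE 0.22, 95% interval -0.01 to 0.90), with an edgeR unadjusted p of 0.0561, an adjusted p of 0.576 and an exact two-sided permutation p of 0.0303. In SS vs Ct it was -0.42 (SE 0.22), with an edgeR unadjusted p of 0.0690, an adjusted p of 0.269 and an exact permutation p of 0.0801. Both intervals included 0, and no alternative brought an adjusted p under 0.05. In RSR vs SS the value was 0.25 (SE 0.23, adjusted p = 0.508), and without the RSR rat Grp8-L9 it was 0.45 (unadjusted p = 0.0356, adjusted p = 0.125). In SR vs SS the unadjusted p was 0.0252 without SS Grp7-L10, 0.0285 without SS Grp7-R9 and 0.0460 without SR Grp7-L4. Without the low SS rats the difference shrank, to 0.34 (unadjusted p = 0.132) without SS Grp7-R2 and 0.35 (unadjusted p = 0.134) without SS Grp8-L5. In SS vs Ct the unadjusted p was 0.0297 without SS Grp7-L10, 0.0351 without SS Grp7-R9 and 0.0339 without Ct Grp7-R5. It was 0.152 without SS Grp7-R2 and 0.155 without SS Grp8-L5, with a log2 fold change of -0.33 in both cases. With the groups pooled, Pvalb was also the most variable of the 5 well-counted genes, with an SD within groups of 0.44 on the log2 CPM scale, higher than in 91.2% of 14364 genes with a mean of at least 1 CPM. This did not hold in every group. The SD of Pvalb in CPM was 38.0% of the mean in RSR and 32.8% in SS, but 18.1% in Ct and 12.1% in SR. Nos1 varied more in Ct (22.4%), and Sst varied more in SR (23.8%).

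Nos1 encodes the enzyme that makes nitric oxide in neurons. It ran from 29.2 to 47.3 CPM in Ct (median 31.3), from 33.6 to 42.7 in SR (median 36.3) and from 32.4 to 47.3 in SS (median 35.6), and was 36.5, 37.2, 40.0, 42.3 and 43.1 in the RSR rats. The Ct group was uneven, with 4 rats at 29.2 to 32.8 CPM and the rats Grp8-L11 and Grp7-L7 at 43.4 and 47.3. Those Ct rats also had the highest Gad1 of their group, 437 and 453 CPM. Those 4 lower Ct rats were set apart after their values were seen. All RSR rats lay above them, and so did all SR rats, the lowest at 33.6 CPM. The lowest SS rat, at 32.4 CPM, did not. The RSR vs Ct log2 fold change was 0.17 (SE 0.12, 95% interval -0.08 to 0.42), with an edgeR unadjusted p of 0.165 and an adjusted p of 0.982. Without the Ct rat Grp7-L7 that value was 0.27, with an unadjusted p of 0.0262 and an adjusted p of 0.823. With any other Ct or RSR rat left out it ran from 0.12 to 0.24. The lowest came without Ct Grp7-R12 (edgeR unadjusted p = 0.355) and the highest without Ct Grp8-L11 (edgeR unadjusted p = 0.0653). In the other comparisons Nos1 differed by -0.09 to 0.09 on the log2 scale.

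**Figure D3:**
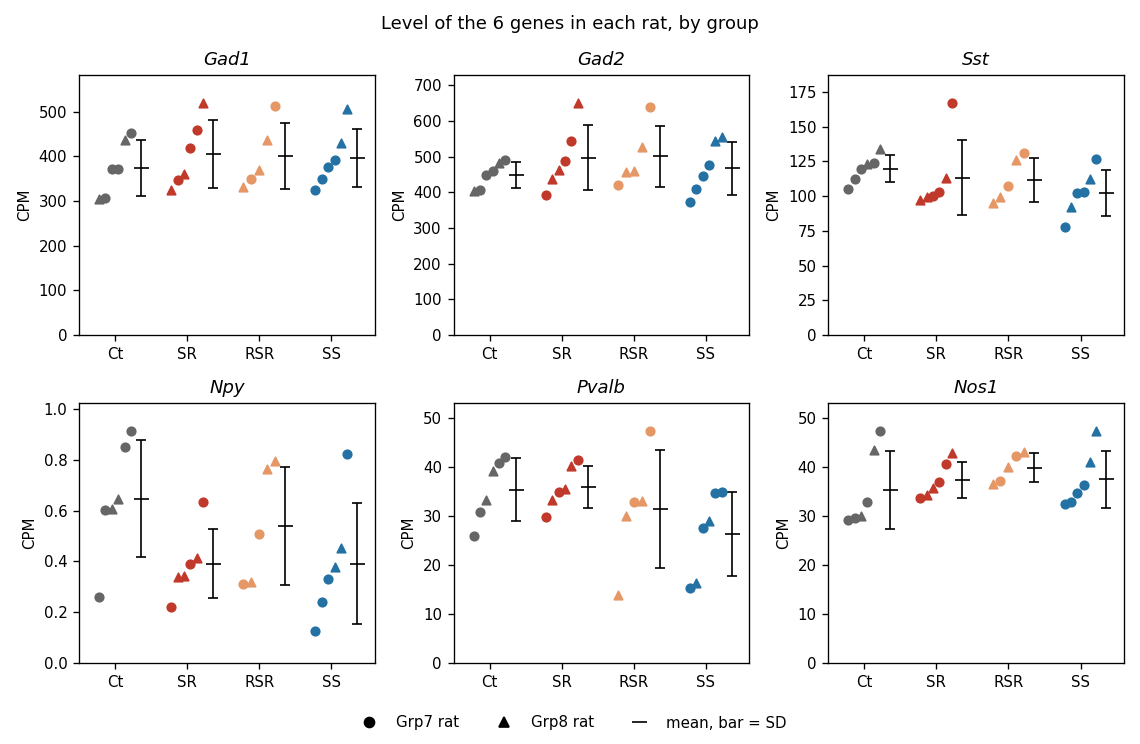
Level of each gene in CPM by group, 1 point per rat (circles Grp7, triangles Grp8) in rising order, with the group mean and SD (bar) at the right of the points. All groups overlap for each gene; Pvalb shows the 3 low METH rats and Sst the SR rat at 167 CPM.

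Across all genes the edgeR test called 0% of the 16275 genes at an adjusted 0.05 in each comparison, and 0 of the 6 genes here. At an unadjusted p under 0.05 it called 4.92% of all genes in SR vs Ct, 4.63% in RSR vs Ct, 21.4% in SS vs Ct, 8.65% in SR vs SS, 25.3% in RSR vs SS and 4.29% in SR vs RSR. None of the 6 genes was under 0.05 in any of them, and a share near 21.4% or 25.3% of 6 genes would be about 1 gene. Groups that did not overlap were found for 0.356% of genes in SR vs Ct, 0.387% in RSR vs Ct, 0.823% in SS vs Ct, 0.356% in SR vs SS, 2.48% in RSR vs SS and 0.313% in SR vs RSR, and for none of the 6 genes. DESeq2 on all groups also gave no adjusted p under 0.05 for these genes and an unadjusted p of 0.0420 for Pvalb in SR vs SS, the only one of the 36 under 0.05. Fitted to just the pair of groups compared, DESeq2 gave unadjusted p-values under 0.05 for Npy in SR vs Ct and for Sst and Pvalb in SS vs Ct. It did so for Pvalb in SR vs SS too. These DESeq2 p-values were 0.0264 for Sst, 0.0358 for Pvalb in SS vs Ct and 0.0177 for Pvalb in SR vs SS, none of them under 0.05 after adjustment. Of the 36 exact permutation tests 2 had p under 0.05, Sst in SS vs Ct and Pvalb in SR vs SS. This test was run for the 6 genes alone. No share over all genes is given for it or for the DESeq2 fits, so these counts cannot be set beside one.

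**Figure D4:**
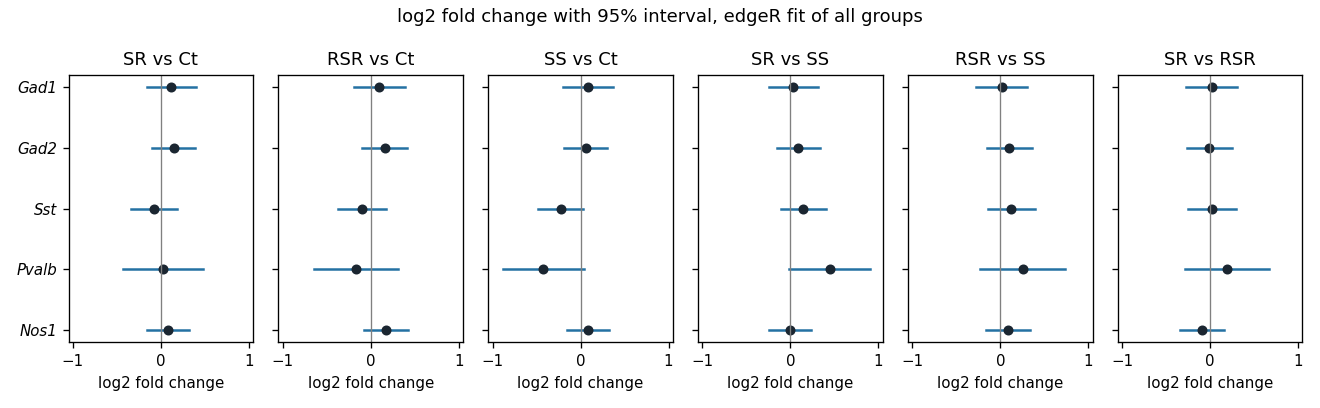
log2 fold change (point) with its 95% interval (line) for 5 genes in each of the 6 comparisons, from the edgeR fit of all 23 libraries; Npy is left out for its low counts. Every interval includes 0, and those of Pvalb are the widest.

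The test for any difference among the 4 groups gave edgeR unadjusted p-values of 0.834 for Gad1, 0.520 for Gad2, 0.361 for Sst, 0.199 for Pvalb and 0.569 for Nos1, while 15.6% of all genes were under 0.05. The median log2 fold change of the 6 genes in SS vs Ct was -0.08 with Npy and 0.06 for the 5 genes without it, beside 0.015 over all genes, so its sign depended on Npy. In RSR vs Ct it was -0.00085 with and 0.099 without Npy, beside 0.0018 over all genes, so there too the sign depended on Npy. In SR vs Ct it was 0.05 with and 0.08 without Npy, and in RSR vs SS 0.11 and 0.10, beside 0.0044 and -0.0055 over all genes. In SR vs SS it was 0.06 and 0.09, and in SR vs RSR 0.0028 and 0.017, beside -0.0095 and -0.0045 over all genes. Comparisons that share a group also share its rats, so the values for SS vs Ct and SR vs SS are not separate observations of the SS rats.

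Within groups, the level of one gene was set against another over the 23 rats as log2 CPM less the group mean, for 15 pairs. Gad1 and Gad2 rose and fell together with r = 0.911 and rho = 0.914 (both permutation p = 2e-05, adjusted p = 0.0003), and r was 0.873 (permutation p = 1e-05, the smallest that the resamples can give) without RSR Grp7-L2 and SR Grp8-R7, the rats farthest from the median of Gad1. The pair held in Grp7 rats (r = 0.908, permutation p = 0.00136, n = 13) and in Grp8 rats (r = 0.943, permutation p = 0.00722, n = 10). Rats were permuted only within their group, and each group holds 2 or 3 Grp8 rats. Few arrangements exist for them, so every Grp8 permutation p given here is coarse and cannot be very small. In the order of likeness to Gad1 among 14363 other genes, Gad2 was number 3, and Gad1 was number 2 in that of Gad2. The GABA synthesis enzymes were thus among each other's closest matches in these rats.

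Nos1 followed Gad1 with r = 0.702 (permutation p = 0.00032, adjusted p = 0.0024) and rho = 0.701 (permutation p = 0.00047, adjusted p = 0.00352), and r stayed at 0.702 (permutation p = 0.0025) without the same 2 rats. Within Grp7 rats r was 0.549 (permutation p = 0.128, n = 13) and within Grp8 rats 0.802 (permutation p = 0.0634, n = 10), so the relation had the same sign in both and passed 0.05 in neither alone. With Gad2 the r of Nos1 was 0.592 (permutation p = 0.00055, adjusted p = 0.00275) and rho 0.627 (permutation p = 0.00113, adjusted p = 0.00565), and r was 0.585 (permutation p = 0.00545) without those rats, 0.317 (permutation p = 0.210) in Grp7 and 0.779 (permutation p = 0.0347) in Grp8. Gad1 ranked 73 of 14363 genes in likeness to Nos1, and Nos1 ranked 306 in likeness to Gad1. Gad2 ranked 487 in likeness to Nos1, and Nos1 ranked 588 in likeness to Gad2. Sst, made by the same interneurons as Nos1, did not track it, with r = 0.115 (permutation p = 0.564, adjusted p = 0.8), rho = 0.160 (permutation p = 0.453, adjusted p = 0.603), 0.0559 (permutation p = 0.807) without SR Grp7-L4 and SS Grp7-R1, 0.00039 (permutation p = 0.998) in Grp7 and 0.427 (permutation p = 0.155) in Grp8. Sst ranked 5476 in likeness to Nos1.

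Gad1 and Sst gave r = 0.268 (permutation p = 0.265, adjusted p = 0.775) and rho = 0.223 (permutation p = 0.332, adjusted p = 0.603), with r = 0.333 (permutation p = 0.161) without the 2 rats farthest in Gad1. In Grp7 rats r was 0.0214 (permutation p = 0.951, n = 13) and in Grp8 rats 0.781 (permutation p = 0.0135, n = 10), a difference that was not tested. Pvalb passed the adjusted threshold with none of the other genes, and its r with Gad1 was 0.0127 (permutation p = 0.958, adjusted p = 0.995) and its rho -0.0860 (permutation p = 0.701, adjusted p = 0.701). Without the 2 rats farthest in Gad1 that r was -0.0295 (permutation p = 0.902), in Grp7 rats it was -0.290 (permutation p = 0.345) and in Grp8 rats 0.333 (permutation p = 0.298). All values of a rat come from 1 library and share its scaling factor. With the mitochondrial share, Gad1, Gad2 and Nos1 gave r = 0.545, 0.477 and 0.423 once the 2 rats farthest in that share were left out, against 0.163, -0.0636 and -0.0142 in all rats, and the part of that share in their correlations was not tested. The rats with the highest Gad1 of the METH groups, SR Grp8-R7, RSR Grp7-L2 and SS Grp8-R10, spanned 29.1 to 35.6 CPM of Pvalb, in the middle of its range.

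**Figure D5:**
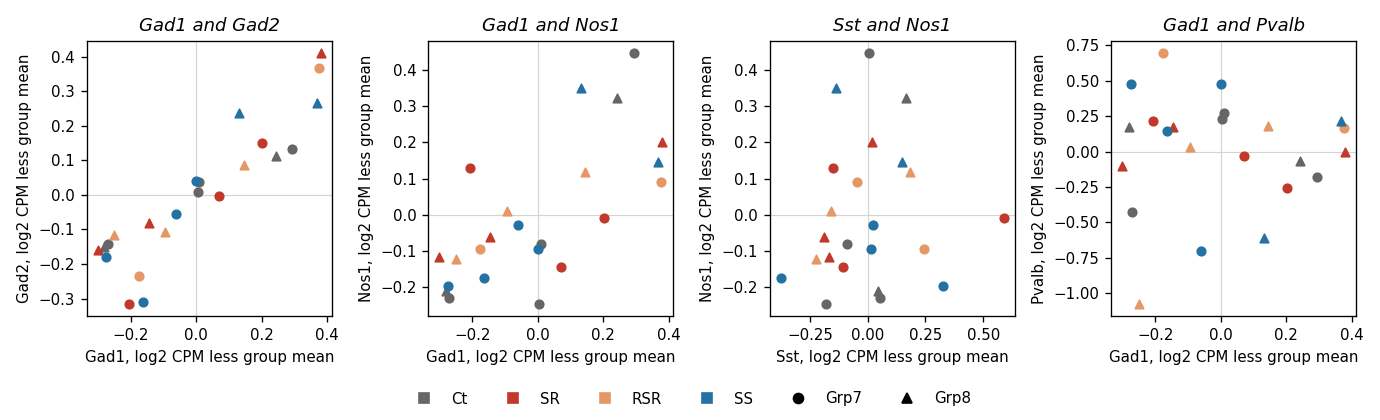
log2 CPM less the group mean for 4 pairs of genes, 1 point per rat in the color of its group (circles Grp7, triangles Grp8). Gad1 and Gad2 fall along a line (r = 0.911) and Nos1 rises with Gad1 (r = 0.702), while Sst and Nos1 (r = 0.115) and Gad1 and Pvalb (r = 0.0127) form clouds.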

How the data were processed

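The authors sequenced poly(A) RNA from the dorsal striatum of 23 rats, used bcl2fastq 2.17 and Trimmomatic 0.36, aligned by STAR 2.5.2b to the Rnor6.0 build and counted unique reads in exons with featureCounts (Subread 1.5.2), by the submitters' processing notes and the labels. What they deposited is a table of counts for each library, not normalized. The strand setting is not given in the sources used here.

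Computed here were TMM factors, CPM and edgeR 4.0.16 quasi-likelihood tests (R 4.3.3) of all 4 groups in one fit, on genes kept by filterByExpr (min.count 10, min.total.count 15). P-values were adjusted by Benjamini-Hochberg over all genes of a comparison. Exact permutation tests, run in R, and correlations used log2 CPM (prior count 2). The correlations were computed with NumPy 2.4.6, with ranks from SciPy 1.17.1, and 100000 permutations within groups. The edgeR fit was tested on simulated counts for SR vs Ct and RSR vs SS, with changes larger than any found here. The exact tests, correlations, DESeq2 fits and motif search were not tested in this way.

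The genes described and the lists were chosen with earlier results of these data known. The rule for naming genes asked for the 6 genes, list genes with a table symbol, and the 3 genes closest to each. As 0 rows of the RefSeq gene table carry an Ensembl identifier, neither the marker lists of the tissue and other cell types nor the closest genes were analysed here. Alternatives were DESeq2 1.42.0, RLE factors, no filter, 2-group fits, the Grp number or the mitochondrial share as covariate, each Grp number alone, and each rat left out.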

Additional observations from a re-analysis of the deposited data

Results flagged for a closer look

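Sst was 167 CPM in the SR rat Grp7-L4, far above the other 5 SR rats at 97.6 to 113 CPM by Dixon's test for a sample apart from its group. It was the only such value in 24 sets (6 genes in 4 groups), and chance gives about 1 in 20. In the same rat Gad1 was 460 CPM and Nos1 36.9, neither the highest nor the lowest of the SR rats. The mitochondrial share of that library was 12.5%, inside the range of its group, and its Pvalb, at 29.9 CPM, and its Npy count of 6 were the lowest of the SR rats. Without the rat the log2 fold change of Sst in SR vs Ct moved from -0.08 to -0.23.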

How the results depend on the processing

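No paired analysis was possible because the rat codes differ from one group to the next, so none pairs 2 rats. The number of these genes with an adjusted p under 0.05 was 0 in all 6 comparisons under every alternative. The number with an unadjusted p under 0.05 rose from 0 to 1 in SR vs Ct with DESeq2 and with edgeR on the 2 groups compared (Npy). It rose to 2 with DESeq2 and to 1 with edgeR in SS vs Ct on the 2 groups compared, and to 1 in SR vs SS without a filter, with DESeq2 on all groups, with DESeq2 or edgeR on 2 groups and with the Grp number as a covariate (Pvalb each time). With each rat left out in turn it ran from 0 to 1 in SR vs Ct, RSR vs Ct, SR vs SS and RSR vs SS and from 0 to 3 in SS vs Ct, where 3 was reached without SS Grp7-L10. The share of all genes under 0.05 is not given for these alternative fits, so the counts cannot be set beside it. In the edgeR fit of all groups that share was already 21.4% in SS vs Ct. Of 210 log2 fold changes of the 5 genes other than Npy under the other settings, 199 kept their direction and side of the unadjusted threshold.

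The sign turned in these cases, none with an unadjusted p under 0.05. Nos1 in SR vs SS was 0.0011 with RLE factors, 0.00038 with no filter and 0.0012 with DESeq2 on all groups. With Grp7 rats alone, SR vs Ct gave 0.10 for Sst (-0.32 in Grp8 rats alone, with an edgeR unadjusted p of 0.0463), RSR vs Ct gave 0.20 for Pvalb and 0.049 for Sst, and SS vs Ct gave -0.058 for Gad1, -0.085 for Gad2 and -0.024 for Nos1. In the same rats SR vs SS gave 0.12 for Nos1, and SR vs RSR gave -0.080 for Gad1 and -0.18 for Pvalb. With Grp8 rats alone, SR vs SS gave -0.21 for Gad1 and -0.077 for Gad2, RSR vs SS gave -0.29 for Gad1, -0.18 for Gad2 and -0.14 for Nos1, and SR vs RSR gave 0.11 for Gad2 and -0.047 for Sst. The cause was not tested, and these fits hold 2 to 4 rats a group. With each rat left out in turn, Pvalb ran from -0.061 to 0.078 in SR vs Ct and from -0.37 to 0.011 in RSR vs Ct. Gad1 ran from -0.012 to 0.16 in RSR vs Ct, from -0.011 to 0.13 in SS vs Ct, from -0.040 to 0.13 in SR vs SS, from -0.077 to 0.10 in RSR vs SS and from -0.063 to 0.12 in SR vs RSR. Gad2 ran from -0.010 to 0.10 in SS vs Ct and from -0.10 to 0.093 in SR vs RSR, Nos1 from -0.0057 to 0.17 in SS vs Ct and from -0.037 to 0.082 in SR vs SS, and Sst from -0.12 to 0.094 in SR vs RSR.

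The correlation of Gad1 with Nos1 was 0.549 (permutation p = 0.128) in Grp7 rats and 0.802 (permutation p = 0.0634) in Grp8 rats, that of Gad2 with Nos1 was 0.317 (permutation p = 0.210) in Grp7 rats, and that of Gad1 with Sst was 0.781 (permutation p = 0.0135) in Grp8 rats. Counts of 325 or more per library stand behind every value but those of Npy, whose 3 to 21 counts limit it. With 5 or 6 rats a group, the intervals of Pvalb reached down to 0.543-fold in SS vs Ct and up to 1.87-fold in SR vs SS. These are the outer limits over the 6 comparisons, and no single interval spans both. On the log2 scale the SS vs Ct interval ended at 0.04 and the SR vs SS interval began at -0.01. The interval of SR vs Ct ran from -0.43 to 0.48.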
